A study of Mus musculus with 8 samples.

Results

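The genes described here encode the motor proteins of the cell, the kinesins, the dyneins and the myosins, with the light chains and dynactin subunits that belong to them. A spot counted when its platform symbol began with Kif, Klc, Dctn, Dync, Dynl, Dnah, Dnaic, Dnali or Dnal, or with Myo, Myh or Myl and a digit. This gave 68 of the 8653 named genes, on 100 of the 20794 spots of a 2-colour cDNA array. For 63 of the 68 at least 1 spot had a value on all 8 arrays, and these 63 were tested. Kif12, Kif18b, Myh11, Myl4 and Myo7b were not, and Myo5a stood in a stretch of the annotation that was not used, so it was not analysed here. The prefix Kif also took in Kifbp, a protein that binds kinesins and is no motor.

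Brain RNA of 4 male mice, 19 weeks old, labelled ADAR-/-/GluR-BR/R, was set against pooled brain RNA of wildtype males, also 19 weeks old (4 mice by the design text, while the labelling protocol gives another number). The mutants lack ADAR2, an enzyme that edits adenosines in double-stranded RNA, and carry Gria2 alleles for the arginine form of the GluR-B receptor subunit, whereas the pool carries neither change. Every mutant brain has a pair of dye-swapped arrays, which makes 8 arrays and n = 4 mice. As the pool is 1 control sample, variation among wildtype animals does not enter any test. The labels name brain as the tissue, and ratios of channels hold no levels from which the presence of its cell types could be read. In bulk tissue, fewer cells of a type and less RNA per cell cannot be told apart.

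Kinesins and dyneins walk along microtubules and use ATP to do so. Most kinesins carry cargo toward the plus end, which in axons means away from the cell body, and cytoplasmic dynein with its partner dynactin carries cargo back. Axonemal dyneins instead slide the microtubules of motile cilia, which in the brain are borne by ependymal cells. Myosins work on actin: the conventional ones contract muscle, their non-muscle relatives shape cells, and the unconventional ones move membranes. The 68 genes were sorted by these roles into 14 transport kinesins and kinesin light chains, 13 subunits of cytoplasmic dynein and dynactin, 9 cilium motors, 8 muscle myosin chains, 7 mitotic and microtubule-remodelling kinesins, 5 non-muscle myosin II chains, 10 unconventional myosins and 2 other names with the prefix Kif. The first 2 sets, 27 genes, are called neuronal transport motors below, although some of them, such as Kif5b and Klc3, are not particular to neurons.

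The labels name the dyes but not the numerator of the deposited log2 ratio. Each gene is therefore given by 2 quantities, both after the median of each array was subtracted. The mean ratio averages the array pair of a mouse, and it compares mutant and pool if every deposited ratio has the same sample on top. The swap component takes the Cy5-mutant array minus the Cy3-mutant array, divided by 2. It is mutant over pool if the ratios are Cy5 over Cy3, and the mean ratio is then no contrast of mutant and pool. No direction of mutant against wildtype is read from either. Spots were named at a shift of 11 between annotation and values, which was found in the data, and every gene name rests on it. Across 18797 spots the arrays of one dye orientation correlated with r of 0.224 to 0.43 with the mutant in Cy5. With the mutant in Cy3 r was 0.459 to 0.68, and between arrays of opposite orientation it was 0.171 to 0.394. None of these pairs was below 0. Of the 3 spots of Adarb1, the disrupted gene, spots 18422 and 18759 had swap components of -1.23 ± 0.163 and -1.33 ± 0.267 (moderated SE, n = 4, limma adjusted p = 0.0383 and 0.0424 over spots), and spot 14946 had -0.10 ± 0.127 (adjusted p = 0.628). The mean ratios of these spots were 0.70, 0.26 and 0.12 (adjusted p = 0.0226, 0.653 and 0.621).

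The stretches before the start sites of 5 members are shown because the classes differed in what these stretches hold. RefSeq (GRCm38.p6) gave windows for 55 of the 68 members, 69 windows in all, and the 250 bases upstream of each start were searched on both strands for 4 motifs. The GC box bound by Sp1 and its relatives was searched as GGGCGG. The TATA box near the start of many tissue-restricted genes was searched as TATAAA. The E-box of muscle regulators such as MyoD was searched as CAGCTG. The X-box of RFX factors, which regulate ciliary genes, was searched by its consensus. Matches of different motifs may overlap. The shown sequences run 5′ to 3′ on the strand of the gene and end at the base before the start site, and capitals mark GGGCGG or its reverse complement.

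Dynll1, chr5:115300991-115301240, minus strand: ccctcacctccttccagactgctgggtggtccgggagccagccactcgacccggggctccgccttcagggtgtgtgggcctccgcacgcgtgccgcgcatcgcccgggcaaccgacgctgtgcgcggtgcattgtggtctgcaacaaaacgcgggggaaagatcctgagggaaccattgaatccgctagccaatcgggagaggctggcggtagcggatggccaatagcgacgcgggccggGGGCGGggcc
Dync1li1, chr9:114688581-114688830, plus strand: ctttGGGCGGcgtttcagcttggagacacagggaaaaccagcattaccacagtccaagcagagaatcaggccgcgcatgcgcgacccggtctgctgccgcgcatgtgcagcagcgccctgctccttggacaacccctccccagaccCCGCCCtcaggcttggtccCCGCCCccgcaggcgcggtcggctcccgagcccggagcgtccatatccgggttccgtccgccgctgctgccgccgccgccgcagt
Dnali1, chr4:125065658-125065907, minus strand: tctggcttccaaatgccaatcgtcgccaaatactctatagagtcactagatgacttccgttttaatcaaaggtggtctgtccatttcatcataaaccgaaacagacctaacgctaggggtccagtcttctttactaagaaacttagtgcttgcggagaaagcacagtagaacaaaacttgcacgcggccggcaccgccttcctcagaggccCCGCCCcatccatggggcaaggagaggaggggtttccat
Dnah11, chr12:118199044-118199293, minus strand: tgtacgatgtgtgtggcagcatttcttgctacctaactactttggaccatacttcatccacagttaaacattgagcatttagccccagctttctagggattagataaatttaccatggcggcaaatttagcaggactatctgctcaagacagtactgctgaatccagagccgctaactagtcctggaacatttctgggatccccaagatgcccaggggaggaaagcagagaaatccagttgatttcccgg
Myl3, chr9:110763428-110763677, plus strand: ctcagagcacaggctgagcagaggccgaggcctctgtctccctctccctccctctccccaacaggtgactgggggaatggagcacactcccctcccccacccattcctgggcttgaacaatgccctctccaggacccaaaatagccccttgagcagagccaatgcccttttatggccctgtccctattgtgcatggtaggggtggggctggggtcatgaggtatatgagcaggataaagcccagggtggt

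The GC box stood in 16 of 22 windows of neuronal transport motors (72.7%), 3 of 9 of cilium motors (33.3%) and 0 of 11 of muscle motors, against 32.7% of all 32851 windows. The median window held 22 CG pairs in the transport class, 11 in the cilium class and 4 in the muscle class, against 6 in all windows. Dync1li1, a light intermediate chain of dynein, had 3 GC boxes and 27 CG pairs, while the muscle light chain gene Myl3 had none and 1. The X-box consensus was in 5 of 9 cilium windows (55.6%) and 10 of 22 transport windows (45.5%), against 29.6% of all. TATAAA was in 3 of 9 cilium, 2 of 11 muscle and 1 of 22 transport windows, against 12.4% of all, and CAGCTG in 1, 2 and 0, against 13.0%. The 3 cilium windows with TATAAA were 1 of Kif27 and 2 overlapping ones of Kif9. These matches are descriptions of sequence, and several windows belong to one gene.

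By the mean ratio, neuronal transport motors stood above the array median, cilium motors below it, and muscle motors near it. The labels do not settle whether this quantity compares mutant and pool, and it does not if the ratios are Cy5 over Cy3. The disrupted gene Adarb1 was further from 0 in the swap component than in the mean ratio at spots 18422 (-1.23 against 0.70) and 18759 (-1.33 against 0.26). At spot 14946 both were small (-0.10 against 0.12). The class values below are therefore given without a direction of mutant against pool. In the mean ratio, 15 of 27 neuronal transport motors passed the limma test with a positive value and 1, Kif17, with a negative one. Of 9 cilium motors 6 passed with a negative value and none with a positive one. Of 6 tested muscle motors none passed in either direction, also none at an unadjusted p below 0.05. Over all 8107 genes tested, 20.6% passed with a positive and 12.4% with a negative value (33.0% in all). Over all 63 tested members 19 were positive and 15 negative. The class medians were 0.61 for neuronal transport, -0.63 for cilium and -0.08 for muscle, against 0.02 for all genes.

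**Figure D1:**
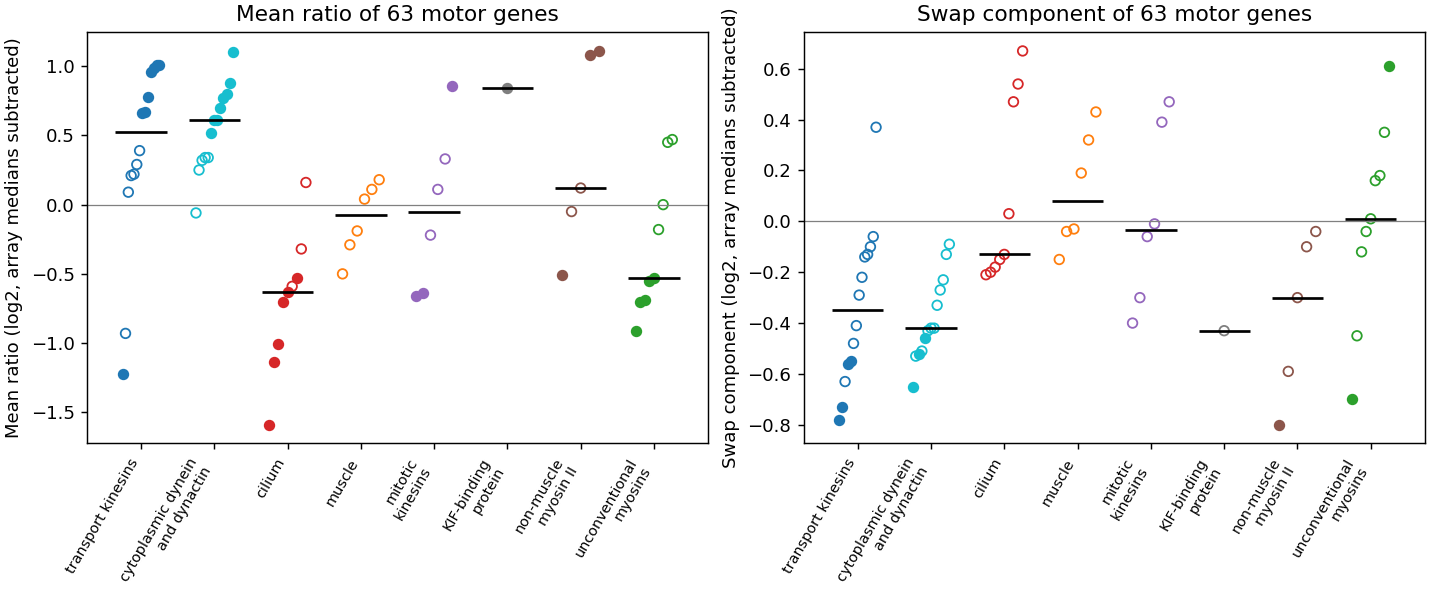
Mean ratio (left) and swap component (right) in log2 units for the 63 tested genes, by class. Each circle is 1 gene, filled where limma gave an adjusted p below 0.05, and the black bar is the class median; the bars of the mean ratio stand at 0.52 and 0.61 for the transport classes and at -0.63 for cilium motors.

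The order of the class medians was similar from mouse to mouse. For neuronal transport motors the median mean ratio was 0.60, 0.46, 0.64 and 0.50 in mice 1 to 4. For cilium motors it was -0.65, -0.59, -0.66 and -0.55. For muscle motors it was -0.36, 0.12, -0.12 and -0.10. The transport median thus lay above the cilium median in each mouse, and the muscle median changed sign between mice. Array by array, transport lay above cilium on 8 of 8 arrays, muscle above cilium on 8 of 8, and transport above muscle on 6 of 8. In mice 1 and 2 on the Cy5-mutant arrays the muscle median (0.25 and 0.26) exceeded that of transport (0.21 and 0.02). The transport values were smaller in this orientation, 0.02 to 0.21, than with the mutant in Cy3, 0.82 to 1.13.

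**Figure D2:**
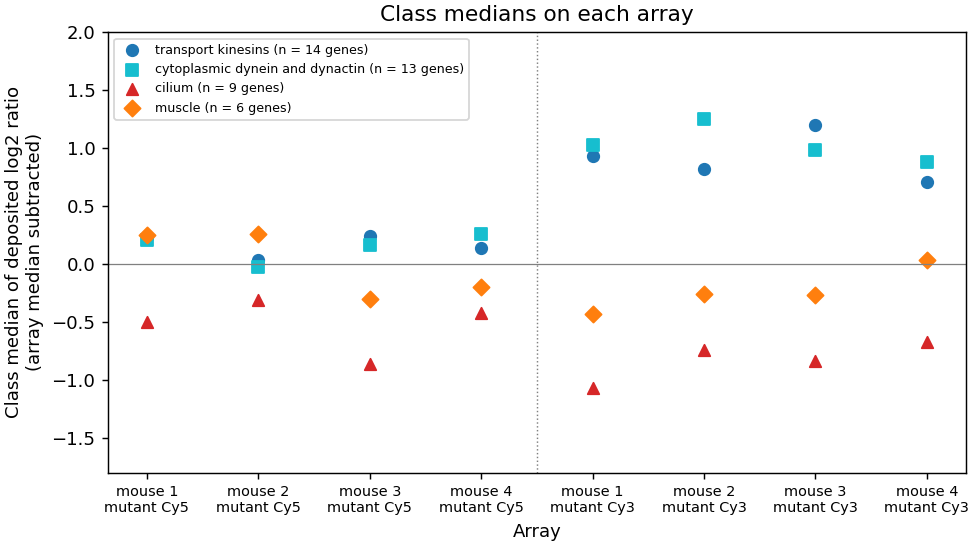
Median log2 ratio of each class on each of the 8 arrays, after the array median was subtracted. Both transport classes lie between -0.03 and 0.26 with the mutant in Cy5 and between 0.71 and 1.25 with the mutant in Cy3, and the cilium class lies below 0 on every array.

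The classes also differed in how many values sat at ratios of small whole numbers, taken here as a sign of weak spots. Such values made up 5.57% of the values of neuronal transport motors, 11.8% of cilium motors and 13.0% of muscle motors, against 6.0% over all named spots. Their part in the class values was not tested beyond leaving them out. With these values set to missing, every spot that held 1 or more of them dropped out whole. Then 12 of 21 transport motors still testable were positive and 4 of 6 cilium motors negative, while 2 muscle motors were left and neither passed. Over all genes 1625 of 5897 were then positive and 855 negative (42.1% in all). Of the 16 transport calls in the main fit 10 could still be tested, and all 10 held. Of the 6 cilium calls 4 could still be tested, and 3 held. Of the 5 neuron markers measured (Stmn2, Eno2, Uchl1, Syp and Syt1), 4 passed with a positive mean ratio, and their values ranged from 0.38 to 1.13. Markers of other brain cells were positive as well, with 3 of 4 astrocyte markers (range 0.25 to 1.25), 1 of 3 oligodendrocyte markers (Cnp, 1.08) and Ttr of the choroid plexus (0.87). Of 5 testis markers 4 passed with a negative one (range -1.95 to -0.06); Tekt1 is a gene of cilia and flagella as well. Foxj1, the only ependyma marker measured, stood at -0.13 ± 0.137 (adjusted p = 0.479). What part the makeup of the tissue has in the class values was not tested.

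Kinesin-1, the founding motor of fast axonal transport, is built of heavy chains of the Kif5 genes and light chains of the Klc genes that hold the cargo. Kif5a, the neuronal heavy chain, had mean ratios of 1.02, 0.90, 1.12 and 0.90 in mice 1 to 4. Kif5b, the heavy chain found in most tissues, had 0.83, 1.07, 1.15 and 0.99. Kif5c, the other neuronal heavy chain, had 0.90, 0.58, 0.67 and 0.51. All 12 of these values were above 0, and those of Kif5c lay below those of Kif5a in each mouse. The mean ratio was 0.99 ± 0.118 for Kif5a, 1.01 ± 0.122 for Kif5b and 0.67 ± 0.127 for Kif5c (moderated SE, n = 4), with limma adjusted p of 0.00487, 0.00487 and 0.0117. Both spots of Kif5a (0.90 and 1.07) and both of Kif5c (0.56 and 0.77) had the same sign. The heavy chains are alike in sequence, and signals that a cDNA spot takes from its relatives cannot be told apart here.

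The light chains did not share one value. Klc1, the light chain of neurons, stood at 0.90, 0.75, 0.64 and 0.83 in mice 1 to 4, with a mean of 0.78 ± 0.119 (adjusted p = 0.00654), and its 3 spots ranged from 0.44 to 1.09. Klc4 had 0.40, -0.02, -0.06 and 0.05 and did not pass (0.09 ± 0.134, adjusted p = 0.631). Klc3, a light chain best known from sperm tails, had -1.75, -1.32, -0.70 and 0.04 and missed the threshold (-0.93 ± 0.293, adjusted p = 0.054). Its mice spread over a wider range than those of any other light chain. As deposited, without subtraction of medians, Klc3 passed at -1.09 (adjusted p = 0.0498), and with ratios of whole numbers left out at -0.94 (adjusted p = 0.042).

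Kif1b, a kinesin-3 that carries precursors of synaptic vesicles and mitochondria, had mean ratios near those of Kif5a. Its mice had 1.02, 0.95, 1.07 and 0.99, with a mean of 1.01 ± 0.113 (limma adjusted p = 0.00487). Kif1c, its relative, had 0.29 to 0.56 and fell just outside the threshold (0.39 ± 0.121, adjusted p = 0.0517). Kif13a, another kinesin-3, had 0.29 ± 0.18 (adjusted p = 0.251). Among other transport kinesins, Kifc2, a minus-end motor of neurons, had 0.60, 0.85, 1.21 and 1.20 (mean 0.96 ± 0.153, adjusted p = 0.0073). Kif21a, a kinesin-4 of axons and dendrites, had 0.63, 0.47, 1.28 and 0.25. Its mean of 0.66 ± 0.191 passed (adjusted p = 0.0428) and lost the threshold with any mouse left out and as deposited (0.50, adjusted p = 0.105). Kifc3 stood at 0.21 ± 0.161 (adjusted p = 0.353).

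The transport motor that passed with a negative value was a kinesin-2. Kif17, a motor of dendrites known for carrying an NMDA receptor subunit, and also present in cilia, had mean ratios of -1.77, -1.26, -0.66 and -1.17. All 8 arrays were below 0, and the mean of -1.22 ± 0.195 passed (adjusted p = 0.00753), also with each mouse left out in turn (highest adjusted p = 0.0363). Kif3b, a heavy chain of the kinesin-2 that builds cilia and also works in axons, had 0.78, 0.26, -0.35 and 0.18. Its mice lay on both sides of 0 (mean 0.22 ± 0.196, adjusted p = 0.42).

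**Figure D3:**
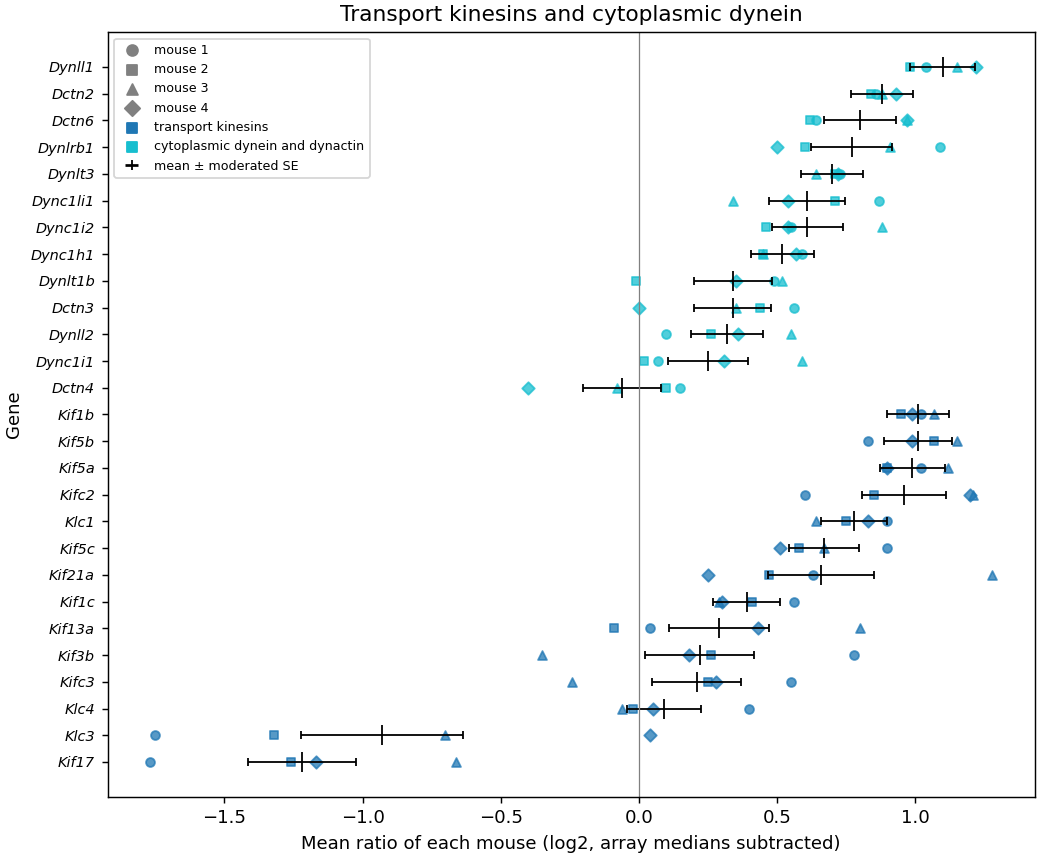
Mean ratio in log2 units of each mouse (symbols) for 14 transport kinesins and light chains and 13 subunits of cytoplasmic dynein and dynactin, with the mean of 4 mice and its moderated SE (black). The means of Kif17 and Klc3 lie far to the left of the others, and the 4 mice of Kif1b, Kif5a, Dctn2 and Dynlt3 lie close together.

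Cytoplasmic dynein is a dimer of heavy chains with intermediate, light intermediate and light chains, and none of its subunits here passed with a negative gene value. Dync1h1, the heavy chain with the motor domain, had 0.59, 0.45, 0.45 and 0.57 (mean 0.52 ± 0.115, limma adjusted p = 0.019). Of the intermediate chains, which hold dynactin, Dync1i2 had 0.55, 0.46, 0.88 and 0.54 (mean 0.61 ± 0.129, adjusted p = 0.0165). Dync1i1, the intermediate chain of neurons, had 0.07, 0.02, 0.59 and 0.31 and did not pass (0.25 ± 0.145, adjusted p = 0.228). The light intermediate chain Dync1li1 had 0.87, 0.71, 0.34 and 0.54 (mean 0.61 ± 0.137, adjusted p = 0.0194). All 4 mice of each of these genes were above 0. The calls of Dync1h1, Dync1i2 and Dync1li1 depended on the number of mice, as leaving out 1 mouse raised the adjusted p to at most 0.0658, 0.0632 and 0.0793. As deposited, Dync1h1 (0.35, adjusted p = 0.0683) and Dync1i2 (0.44, adjusted p = 0.0635) also missed it.

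The light chains held the largest value of the class. Dynll1, a small hub protein that also binds many partners besides dynein, had 1.04, 0.98, 1.15 and 1.22 (mean 1.10 ± 0.118, adjusted p = 0.00487). Dynlrb1, of the roadblock family, had 1.09, 0.60, 0.91 and 0.50 (mean 0.77 ± 0.148, adjusted p = 0.0119). Dynlt3, of the Tctex family, had 0.73, 0.71, 0.64 and 0.72 (mean 0.70 ± 0.113, adjusted p = 0.00757). Their mice did not overlap with 0. Dynlt1b, of the same family as Dynlt3, had 0.34 ± 0.141 (adjusted p = 0.113), with its spots at -0.43 and 1.11.

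Dynll2, a close relative of Dynll1, was measured by 5 spots of different sign. Spots 16283, 17640 and 11421 had mean ratios of 1.11, 1.19 and 0.63 (limma adjusted p over spots of 0.00592, 0.00592 and 0.0148). Spot 13985 had -1.66 (adjusted p = 0.00839). The fifth, spot 10495, lacked 1 array. The average over the 4 complete spots was 0.32 ± 0.13 and did not pass (adjusted p = 0.108), and it hides spots past the threshold in both directions. With ratios of whole numbers left out, spots 13985 and 17640 dropped out, as each held such a ratio on 1 array. Dynll2 then rested on spots 11421 and 16283, stood at 0.87 and passed (adjusted p = 0.00311), without its negative spot. Dctn4 was the other member with calls in both directions, with -0.64 at spot 10903 (adjusted p = 0.0357), 0.70 at spot 17738 (adjusted p = 0.014) and -0.23 at spot 13427 (adjusted p = 0.335). Tested spot by spot, 31 of 93 member spots were positive and 17 negative in the mean ratio, against 20.1% and 14.6% of all 18797 spots (34.7% in all). In the swap component 1 was positive and 14 negative, against 1.41% and 6.43% of all spots (7.84% in all). Of the 24 members with several tested spots, 16 had spots of the same sign and 8 had spots of both signs.

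Dynactin, the complex that ties dynein to its cargo, was measured by 4 subunits. Dctn2, or dynamitin, had 0.86, 0.84, 0.88 and 0.93 (mean 0.88 ± 0.113, adjusted p = 0.00509). Dctn6, of the pointed end of the complex, had 0.64, 0.62, 0.97 and 0.97 (mean 0.80 ± 0.131, adjusted p = 0.00788). The mice of both lay well above 0. Dctn3 had 0.56, 0.44, 0.35 and 0.00 (mean 0.34 ± 0.14, adjusted p = 0.112), and the gene average of Dctn4 was -0.06 ± 0.142 (adjusted p = 0.775). Kifbp, the kinesin-binding protein outside these classes, had 0.86, 0.83, 0.89 and 0.79 (mean 0.84 ± 0.113, adjusted p = 0.00535).

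Of 40 adaptors and regulators of these motors listed beside the members, 25 were on the array, and 7 were positive and 4 negative in the mean ratio, against 20.6% and 12.4% of all genes. Pafah1b1, or Lis1, which activates dynein, stood at 1.04 ± 0.119 (adjusted p = 0.00487), and Hap1, which links huntingtin to dynactin, at 0.96 ± 0.125 (adjusted p = 0.00515). At the other end were Spag9, a scaffold that binds kinesin light chain, at -1.11 ± 0.242 (adjusted p = 0.0173) and the dynein regulator Ndel1 at -0.90 ± 0.129 (adjusted p = 0.00591). The median of the 25 was 0.32, between those of all genes and of the transport motors.

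Cilium motors lay below the array median in 8 of 9 genes. Dnah11, a heavy chain of the outer dynein arm, had -1.45, -0.56, -1.38 and -2.97 (mean -1.59 ± 0.369, limma adjusted p = 0.0215). It was negative on all 8 arrays and had the widest spread between mice of these genes. Dnah5, the other outer arm heavy chain, had -0.49, -0.02, -0.97 and -0.89 and missed the threshold (-0.59 ± 0.19, adjusted p = 0.0568). Dnaic1, an intermediate chain of the outer arm, had -0.26, -0.91, -0.49 and -0.47 (mean -0.53 ± 0.147, adjusted p = 0.0373). Its 2 spots differed, at -1.18 and 0.11. With ratios of whole numbers left out the second spot dropped out, and the gene stood at the -1.18 of the first (adjusted p = 0.00312).

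Axonemal light chains were among the clearest negative genes. Dnal4 had -0.74, -0.66, -1.34 and -1.31 (mean -1.01 ± 0.169, adjusted p = 0.0083). Dnali1, a light intermediate chain of the inner arm, had -0.65, -0.59, -0.99 and -0.55 (mean -0.70 ± 0.132, adjusted p = 0.0117). These were the 2 cilium motors of 6 that passed with each mouse left out in turn; Dnah11 was lost without mouse 3, Kif9 without 1, 2 or 4, Kif27 without 1, 2 or 3 and Dnaic1 without 2, 3 or 4 (adjusted p up to 0.0579, 0.0848, 0.0751 and 0.128). Dnali1 and Dnah11 also passed when only the 4 Cy3-mutant arrays were used.

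The kinesins of the axoneme were negative as well. Kif9 had -1.49, -2.06, -0.30 and -0.72 (mean -1.14 ± 0.297, adjusted p = 0.0308), so its mice ranged widely. Kif27, a relative of the Hedgehog regulator Kif7, had -0.88, -0.76, -0.55 and -0.35 over 3 complete spots (mean -0.63 ± 0.139, adjusted p = 0.0176). With the fourth spot, which lacked 1 array, it stood at -0.50 (adjusted p = 0.168). With ratios of whole numbers left out only spot 11773 remained, and Kif27 stood at -0.56 (adjusted p = 0.0637). The remaining genes serve ciliary transport or have unclear place in the axoneme. Dync2li1, of the dynein that returns cargo within cilia, had -0.49, 0.27, 0.50 and 0.37, the only cilium gene with a positive mean (0.16 ± 0.192, adjusted p = 0.542). Dynlrb2, the relative of Dynlrb1 abundant in ciliated tissues, had -0.12, -0.12, -0.66 and -0.36 (mean -0.32 ± 0.144, adjusted p = 0.14). The roadblock relatives Dynlrb1 and Dynlrb2 thus lay on opposite sides of 0 in each mouse, and the difference between them was not tested. As deposited, Dnah5 (-0.75, adjusted p = 0.0253) and Dynlrb2 (-0.48, adjusted p = 0.0381) passed too, which made 8 of 9.

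Parts of cilia without motor function, from a list beside the members, were mostly below 0 too. Of 43 listed, 26 were tested, 7 were negative and 1 positive, against 12.4% and 20.6% of all genes, with a median of -0.38. Bbs5, of the complex that loads membrane proteins into cilia, stood at -1.21 ± 0.208 (adjusted p = 0.00894), and Spag17, of the central pair, at -1.10 ± 0.313 (adjusted p = 0.0411). Ropn1l, a protein of sperm tails, was also at -1.10 (adjusted p = 0.0139). The positive gene was Ift52, of intraflagellar transport, at 0.58 ± 0.152 (adjusted p = 0.0308).

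None of the 6 tested muscle motors passed the test, and in 5 of them the mice lay on both sides of 0. Myl2, the regulatory light chain of heart ventricle, had all 4 mice below 0, with -0.57, -0.09, -1.24 and -0.08 (mean -0.50 ± 0.222, adjusted p = 0.135). Myl3, its essential light chain partner, had -0.35, -0.58, -0.30 and 0.06 (mean -0.29 ± 0.145, adjusted p = 0.167). Myh7, the slow and cardiac heavy chain, had 0.11, 0.30, -0.10 and 0.40 (mean 0.18 ± 0.135, adjusted p = 0.345). The other tested genes, Myl1 of fast muscle (-0.19 ± 0.142), Myl10 (0.04 ± 0.241) and Myl7 of heart atrium (0.11 ± 0.131), had adjusted p of 0.33, 0.92 and 0.541. A p that misses the threshold does not show that these genes were equal in mutant and pool.

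Myh11, the heavy chain of smooth muscle and so of vessel walls, lacked the array of mouse 2 with the mutant in Cy3. On the other 3 arrays with the mutant in Cy3 it had -2.59, -4.09 and -0.69 in mice 1, 3 and 4. With the mutant in Cy5 it had -2.66, -1.98, 0.22 and 0.21 in mice 1 to 4. With mouse 2 resting on 1 array, its mean ratio was -1.70 ± 0.384 and passed (limma adjusted p = 0.0248, over the 8604 genes with a value in every mouse). The values of mice 3 and 4 in Cy5 lay on the other side of 0. Myl4, of embryonic muscle and atrium, had no value in mouse 1 and ranged from -3.19 to 0.94 on the other 6 arrays. Of 22 tested parts of the sarcomere listed beside the members, 3 were positive and 4 negative. The positive ones included Actc1 (1.12 ± 0.113, adjusted p = 0.00487) and Mylpf (0.86 ± 0.128, adjusted p = 0.00628). Mylpf is a myosin light chain too, but its symbol has no digit after Myl, so it was not a member. Among the negative ones were Tnni2 at -0.70 ± 0.181 (adjusted p = 0.0299) and Mybpc2 at -0.62 ± 0.158 (adjusted p = 0.0284). The median was -0.13, and the 7 calls of 22 lie near the 33.0% called over all genes.

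Non-muscle myosin II, which gives cells tension and shapes dendritic spines, held the highest mean ratio of all members. Myl12b, a regulatory light chain, had 1.06, 1.14, 1.11 and 1.12, the narrowest set of mice in its class (mean 1.11 ± 0.113, adjusted p = 0.00487). Myh10, the heavy chain IIB abundant in brain, had 0.97, 1.19, 0.96 and 1.19 (mean 1.08 ± 0.121, adjusted p = 0.00487). Myl12a, nearly identical to Myl12b as a protein, had -0.64, -0.22, -0.71 and -0.46 (mean -0.51 ± 0.135, adjusted p = 0.0331). The 2 light chain genes therefore lay on opposite sides of 0 in each mouse, although their cDNAs may share signal. The call of Myl12a was lost with any mouse left out (adjusted p up to 0.114). Its 3 spots, 1738, 4341 and 5171, had mean ratios of -0.17, -0.59 and -0.76. With ratios of whole numbers left out only spot 1738 remained, and the gene stood at -0.17 (adjusted p = 0.399). Myh14 had 0.63, 0.48, -0.59 and -0.73, with mice 1 and 2 above 0 and mice 3 and 4 below (mean -0.05 ± 0.271, adjusted p = 0.896). Myl6 stood at 0.12 ± 0.172 (adjusted p = 0.621), with spots at -0.58 and 0.82.

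Of the 9 tested unconventional myosins 5 were negative in the mean ratio and none positive, against 12.4% and 20.6% of all genes. Of these 5, 4 were class I myosins, which link membranes to actin. Myo1e, a long-tailed class I myosin, had -0.61, -0.80, -0.81 and -0.54 (mean -0.69 ± 0.122, adjusted p = 0.00956), and was the one that passed with each mouse left out. Myo1g and Myo1f, which are class I myosins of blood cells, had -0.70 ± 0.171 and -0.55 ± 0.156 (adjusted p = 0.0255 and 0.041). Of the markers of blood cells S100a8 and Alas2 were negative too (-1.51 and -1.24), while Hba-a1 was positive (0.94), and the microglia markers Aif1 and Ptprc stood at -0.96 and -0.89 beside C1qb at 0.94. Their part in the values of these myosins was not tested. Myo1c, which tethers membrane to actin, had -0.16, -0.46, -1.40 and -1.63 (mean -0.91 ± 0.274, adjusted p = 0.047), and Myo5b, a motor of recycling endosomes, had -0.53 ± 0.153 (adjusted p = 0.0424). The call of Myo5b was lost without any 1 of the mice (adjusted p up to 0.146), those of Myo1c and Myo1f without mouse 2, 3 or 4 (up to 0.142 and 0.132) and that of Myo1g without mouse 2 or 4 (up to 0.0685).

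**Figure D4:**
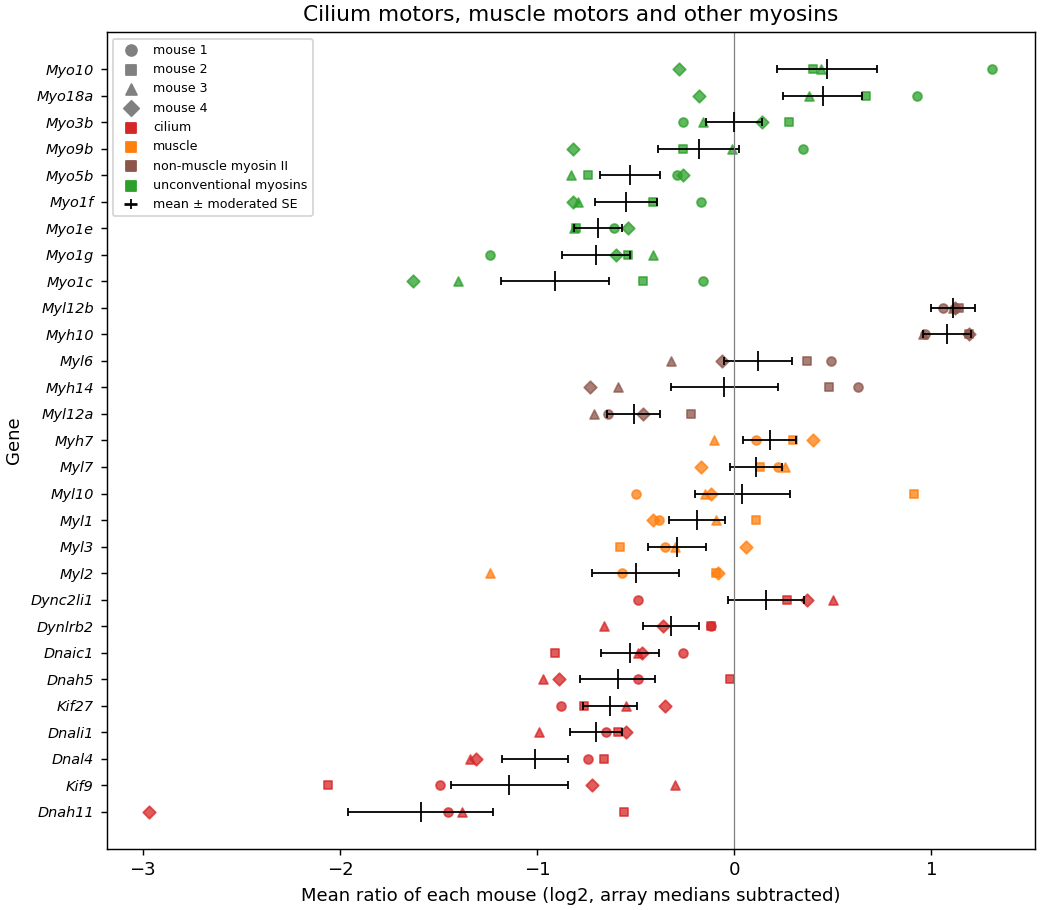
Mean ratio in log2 units of each mouse (symbols) for 9 cilium motors, 6 muscle motors, 5 non-muscle myosin II chains and 9 unconventional myosins, with the mean of 4 mice and its moderated SE (black). Dync2li1 is the only cilium gene whose mean is above 0, and Myl12b and Myh10 lie apart from the other myosins.

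Mitotic and microtubule-remodelling kinesins, whose cell division roles have little place in the adult brain, were mixed. Kif2a, which depolymerises microtubule ends and trims axon branches in neurons, had 0.62, 0.56, 1.12 and 1.12 (mean 0.86 ± 0.155, adjusted p = 0.0102). Kif23, which acts in cytokinesis, had -0.50, -0.83, -0.44 and -0.82 (mean -0.64 ± 0.133, adjusted p = 0.015), and the chromosome-bound Kif4 had -0.81, -0.11, -0.50 and -1.23 (mean -0.66 ± 0.201, adjusted p = 0.0487). Of these 3, Kif2a alone passed with each mouse left out. Kif4 reached an adjusted p of 0.132 and Kif23 of 0.067 without a mouse. Kif2c, Kif20a and Kif22 had -0.22, 0.11 and 0.33 and did not pass (adjusted p = 0.554, 0.618 and 0.353). In Kif2c and Kif22 mouse 1 stood apart from mice 3 and 4, with -1.05 against 0.50 and 0.15 in Kif2c, and -0.58 against 0.84 and 0.76 in Kif22.

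In the swap component, 9 members were negative past the threshold and 1 positive, against 7.94% negative and 1.37% positive of 8107 genes (9.31% in all). Of the 9, 7 were neuronal transport motors, and 26 of the 27 transport motors had a value below 0, with a median of -0.42 against -0.08 for all genes. Cilium motors had 4 values above and 5 below 0 and muscle motors 3 and 3, with medians of -0.13 and 0.08 and no calls. At an unadjusted p below 0.05 there were 3 of 9 cilium and 1 of 6 muscle motors, against 2516 of all 8107 genes. The transport values by mouse were -0.39, -0.49, -0.32 and -0.34 at the median.

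Kif5c had the most negative swap component among the kinesins, with -0.92, -0.89, -0.64 and -0.68 in mice 1 to 4 (mean -0.78 ± 0.109, limma adjusted p = 0.0271). Kif5b had -0.71, -0.80, -0.56 and -0.86 (mean -0.73 ± 0.107, adjusted p = 0.0271), Klc1 had -0.56 ± 0.107 (adjusted p = 0.034) and Kif5a -0.55 ± 0.107 (adjusted p = 0.0353). All 4 measured kinesin-1 genes that were positive in the mean ratio were therefore negative here. Of the dynein light chains Dynll1 had -0.65 ± 0.118, Dynlt3 -0.52 ± 0.0999 and Dynll2 -0.46 ± 0.102 (adjusted p = 0.0314, 0.0347 and 0.0458). Outside transport, Myl12b had -0.66, -0.83, -0.80 and -0.91 (mean -0.80 ± 0.104, adjusted p = 0.0271). Myo10, a myosin of filopodia, had -0.87, -0.59, -0.79 and -0.55 (mean -0.70 ± 0.11, adjusted p = 0.0271), although its mean ratio did not pass (0.47 ± 0.254, adjusted p = 0.201). Myo1f was the positive gene, with 0.93, 0.58, 0.54 and 0.37 (mean 0.61 ± 0.127, adjusted p = 0.041). No member passed with any 1 mouse left out, where 22 to 28 of 63 had an unadjusted p below 0.05. None of the 8107 genes passed in those fits either, and 1848 to 2392 had an unadjusted p below 0.05. As deposited 4 negative calls among members were left, and 199 over all 8107 genes.

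Seen by orientation, the neuronal transport genes at their median were near the array median with the mutant in Cy5 (0.18) and well above it with the mutant in Cy3 (1.03). Kif5b had a mean of 0.28 with the mutant in Cy5 and 1.74 in Cy3, and Dynll1 had 0.45 and 1.75. Kif17 (-0.84 and -1.59) and Klc3 (-0.99 and -0.88) were below it in both. Outside this class, the non-muscle light chain gene Myl12b had 0.31 and 1.91. Kif5c had -0.12 and 1.45, so that it lay on both sides of 0. The cilium genes had no common pattern: Dnah11 had -0.92 and -2.26, Dnali1 -0.23 and -1.17, Kif9 -1.34 and -0.95, and Dnal4 -1.22 and -0.81. Myl7 was above the median in Cy5 (0.54) and below it in Cy3 (-0.31). From the 4 Cy5-mutant arrays limma called none of 67 members (17 at an unadjusted p below 0.05) and none of 8395 genes (2026 at that level), and from the 4 Cy3-mutant arrays 20 members were positive and 6 negative of 63, against 1768 and 904 of 8266 genes (32.3% in all). All 16 transport calls of the mean ratio held in the second set, and 2 of 6 cilium calls did.

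**Figure D5:**
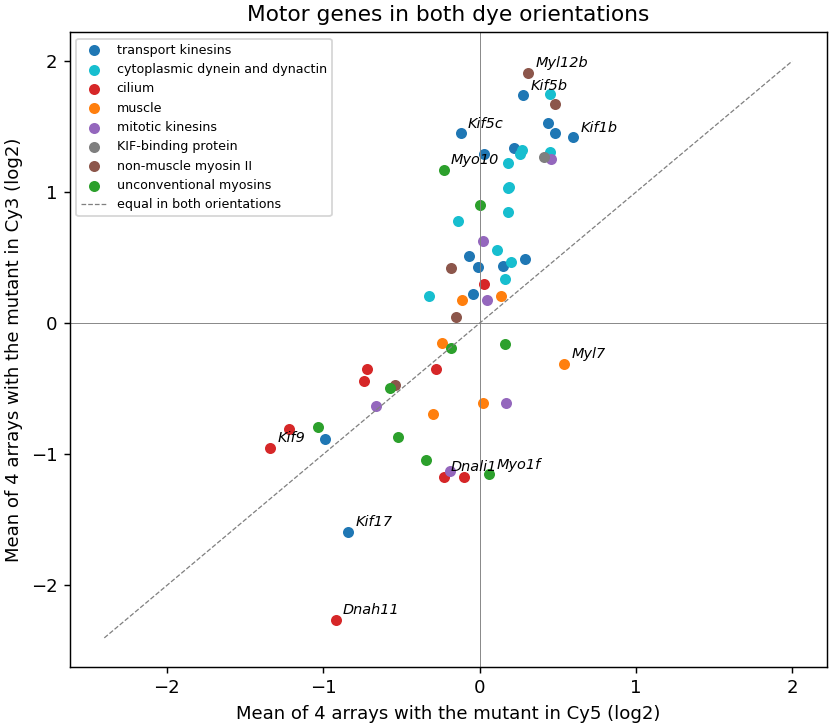
Mean log2 ratio of the 4 arrays with the mutant in Cy5 (x axis) against that of the 4 arrays with the mutant in Cy3 (y axis) for the 63 tested genes, coloured by class. Most transport genes lie above the dashed line of equal values, and the cilium genes lie on both sides of it with Dnah11 lowest at -0.92 and -2.26.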

How the data were processed

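The deposited table holds log2 ratios of the 2 channels for 20794 spots on 8 arrays, and the log2 scale was inferred from the values, since many values fit the log2 of simple whole-number ratios once 1 constant per array is added. For image analysis, background correction and normalization the sources used here give nothing. Array medians of the deposited log2 values ranged from -0.571 to -0.0045; which centring and which numerator the authors used is unknown. Each array had 221 to 553 empty cells, and 1 to 30 cells coding a ratio of 100000 were also taken as missing, which left 20211 to 20559 values.

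Array medians were subtracted, which moved the median of all genes from -0.14 to 0.02 in the mean ratio and changed the calls over all genes from 1122 positive and 1550 negative to 1668 and 1008. Only spots with a value on all 8 arrays were used, since the effect of the dye does not cancel in a mean of 1 array. Spots were named by the platform annotation at a shift of 11 spots, for annotated spots up to 20000 (12131 spots, 8653 genes), and symbols were updated to RefSeq (GRCm38.p6) where the gene identifier matched. Spots of a gene were averaged. The 4 values per gene, 1 per mouse, were tested against 0 in limma 3.58.1 under R 4.3.3 (an intercept, lmFit, then eBayes) over 8107 genes; p-values were adjusted by Benjamini-Hochberg and called at 0.05, and the same was done over 18797 spots. The test was tested on simulated data. SEs are moderated.

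Alternatives were the values as deposited, a value in every mouse, single spots, removal of ratios of whole numbers up to 10 (within 0.001), each dye orientation alone, each mouse left out, a robust prior and current symbols.

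Named were, per class, up to 6 genes per direction past the threshold in the mean ratio and up to 4 in the swap component with the largest values, every measured member of kinesin-1, kinesin-2 and dynactin with Kif1b, Kif21a, Dync1h1 and Myh10, members whose spots passed in opposite directions (40 genes in all), and up to 2 genes per direction of the lists beside the members. Members named beyond this were chosen after their values were seen. The members, classes and lists were chosen with earlier results of these data known.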

Additional observations from a re-analysis of the deposited data

Results flagged for a closer look

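Among 80 sets of 4 mice (40 genes, mean ratio and swap component), 2 held a mouse far from the others by Dixon's criterion, where chance gives about 1 in 20. Kif23 had a swap component of -0.71 in mouse 3, against 0.15 to 0.26 in the other mice. Kif2a had -0.16 in mouse 3, against -0.50 to -0.46.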

How the results depend on the processing

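The 15 positive calls among neuronal transport motors became 26 of 44 when each spot was tested on its own, 0 with the mutant in Cy5 alone and 11 to 12 with 1 mouse left out; their 7 negative calls in the swap component became 2 as deposited, 11 over single spots and 0 with any 1 mouse left out. The 6 cilium calls became 0 with the mutant in Cy5, 2 with the mutant in Cy3 and 3 to 4 with 1 mouse left out (3 without mouse 3), and the muscle class gained 1, Myh11, where mice could rest on 1 array. Over all members the 19 positive calls became 31 over single spots and 0 in Cy5, and 15 to 17 with 1 mouse left out. The 15 negative calls became 0 in Cy5, 6 in Cy3 and 7 to 10 with 1 mouse left out (7 without mouse 2, 3 or 4). Over all 8107 genes the calls with 1 mouse left out fell too, from 1668 to between 1013 and 1296 positive. The negative ones fell from 1008 to between 561 and 867. With the mutant in Cy5 alone no gene was called, and in Cy3 1768 were positive and 904 negative of 8266. In the swap component the 1 positive call became 0 as deposited and 0 with 1 mouse left out, and the 9 negative calls became 4 as deposited, 14 over single spots, 14 of 48 without ratios of whole numbers, and 0 with 1 mouse left out. Over all genes the 644 negative calls of the swap component became 199 as deposited and 947 of 5897 without ratios of whole numbers. The 111 positive ones became 87 as deposited. With 1 mouse left out no gene was called, and over single spots 1208 of 18797 were negative. The robust prior and current symbols left the counts of members within 1.5 times.

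The transport median of 0.61 became 0.44 as deposited, 0.51 without ratios of whole numbers, 0.18 in Cy5, 1.03 in Cy3 and 0.52 to 0.63 with 1 mouse left out; in the swap component it became -0.32 as deposited and -0.44 to -0.31. The cilium median of -0.63 became -0.80 as deposited, -0.72 in Cy5, -0.81 in Cy3 and -0.73 to -0.60 with 1 mouse left out, and in the swap component 0.05 over single spots. The muscle median in the swap component became 0.36 without ratios of whole numbers (2 genes). The causes were not tested.

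Some signs changed, also in the called genes Kif5c and Myo1f. In the mean ratio with the mutant in Cy5 these were Dynll2 (-0.14), Kif3b (-0.07), Kif5c (-0.12), Klc4 (-0.04), Myo10 (-0.23) and Myo1f (0.06), with the mutant in Cy3 Dctn4 (0.21), as deposited Klc4 (-0.07), and with 1 mouse left out Dctn4 (-0.13 to 0.06) and Klc4 (-0.01 to 0.14). In the swap component they were, as deposited, Kif23 (0.09), Klc3 (0.05), Myl12a (0.07) and Myo5b (0.06), without ratios of whole numbers Dnaic1 (0.08), and with 1 mouse left out Kif23 (-0.10 to 0.22), Kif9 (-0.72 to 0.13), Klc3 (-0.36 to 0.42), Klc4 (-0.22 to 0.02), Myl12a (-0.15 to 0.06), Myo1g (-0.03 to 0.37) and Myo5b (-0.10 to 0.03). Of the 34 called members 19 kept the call in the mean ratio with each mouse left out, 31 as deposited, 28 where mice could rest on 1 array and 23 of 25 still tested without ratios of whole numbers. The number of mice and arrays limits the precision. The arrays of a mouse were paired in both quantities. Mutant mice could not be paired with wildtype mice, because there is 1 group and its mice were compared with a pool.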
